A study of Arabidopsis thaliana with 12 samples.

Results

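At predawn, seedlings that carry the tic-2 allele of TIME FOR COFFEE (TIC) were compared with the wild type Col-0 across the transcriptome. Of the 25729 genes in the deposited table, the comparison covered the 19274 with at least 1 FPKM (fragments scaled by gene length and sequencing depth) in at least 3 of the 12 libraries, and left out 6455. Both groups were whole seedlings of the Col-0 ecotype, 10 days old, grown at 22 °C under a regime the labels name only LD on MS medium with 3% sucrose. They were harvested at ZT 0, with ZT counting hours from lights-on. The control group was wild type, and the mutant group was homozygous for tic-2. Each had 3 libraries (A, B and C) that the design text calls biological replicates. The other 6 libraries, Col-0 and tic-2 at postdusk (ZT 12) with 3 each, entered the same fit and are used below only to ask whether a difference at predawn was also present at postdusk. By its title, the series asks how TIC bears on hypocotyl growth through phytochrome A.

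The labels conflict for these samples. The records titled tic-2 at predawn carry, in their description field, the short names of Col-0 at postdusk, and the records titled Col-0 at postdusk carry those of tic-2 at predawn. Columns were assigned here by the genotype and time that their own names spell out, and letters name libraries only. If the description field were right instead, the columns called tic-2 predawn would be Col-0 postdusk. Morning transcripts bear on this directly. LHY, which peaks around dawn, measured 401 ± 23.2 FPKM in Col-0 and 158 ± 8.62 FPKM in tic-2 (SD, n = 3) in the columns named predawn, against 0.483 ± 0.0298 FPKM in Col-0 and 31.5 ± 1.82 FPKM in tic-2 in the columns named postdusk. No label names what the tic-2 allele does to the gene, so the TIC transcript cannot serve as a check of genotype. The labels agree for the columns named Col-0 predawn and tic-2 postdusk. There AT5G24240 measured 13.2 FPKM in Col-0 and 0.0399 FPKM in tic-2, and AT3G11960 12.6 and 0.0901 FPKM. In the columns named tic-2 predawn they measured 0.0809 and 0.126 FPKM, near those of tic-2 postdusk. In those named Col-0 postdusk they measured 15.3 and 13.7 FPKM. Both genes were picked by the size of their predawn difference. Their low values in the columns named tic-2 predawn were therefore set by that choice.

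TIC is a nuclear protein of the plant circadian clock that was found through mutants whose rhythms run with short period and low amplitude. The clock of Arabidopsis is a set of transcription factors that repress one another in turn through the day: the Myb factors CCA1 and LHY peak around dawn and bind the evening element in promoters of evening genes, the PRR proteins follow through the day, and TOC1, GI and the evening complex of ELF3, ELF4 and LUX close the cycle. Clock output times starch use at night, the gating of growth through PIF factors, and the cold response.

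The transcript of TIC itself was not lower in tic-2. TIC measured 52.1, 56.6 and 56 FPKM in Col-0 and 63.9, 70.1 and 98.4 FPKM in tic-2 (log2 fold change 0.47, SE 0.19, adjusted p = 0.084, limma on log2(FPKM + 1) with Benjamini-Hochberg adjustment over all genes kept, as for every adjusted p below). The 3 mutant libraries lay above the 3 wild-type libraries, and library C was the highest. The difference did not pass an adjusted p of 0.05, the threshold used throughout, with all libraries in the fit. It passed without tic-2 library A (log2 fold change 0.59, adjusted p = 0.0441) and without tic-2 postdusk library C (0.47, adjusted p = 0.0233). It also passed without both tic-2 C libraries, with a smaller difference (0.28, adjusted p = 0.0277), with array weights (0.35, adjusted p = 0.00754) and with a replicate block (adjusted p = 0.0401). In the text, "rose" and "fell" mean higher or lower in tic-2 than in Col-0 past that threshold. Values with ± are means and SD of 3 libraries, and "SE" belongs to the log2 fold change.

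In all, 2526 genes rose and 2808 fell, which is 13.1% and 14.6% of the genes tested. The median log2 fold change over all genes was -0.03, and the median size of the change among called genes was 0.598. At least 1 log2 unit separated the genotypes for 541 of the risen and 440 of the fallen genes, and at least 2 log2 units for 70 and 75. The 3 values of one genotype lay entirely above the 3 of the other, that is without overlap, for 44.7% of all genes and for 5257 of the 5334 called genes. Gene groups are described below by how many of their kept members rose and fell, to be read against 13.1% and 14.6%, and by their median log2 fold change, to be read against -0.03. In 15 pairs of group and direction limma called no member. In 11 of these none had an unadjusted p under 0.05 and in the others 1 had, and voom on recovered reads called none.

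The depth was 19255016 to 21750334 reads per library, and 1 read per kb of exon stood for 0.046 to 0.0519 FPKM. Pairs of Col-0 predawn libraries correlated at r = 0.991 to 0.992 across genes, and pairs of tic-2 predawn libraries at 0.966 to 0.983, so the mutant libraries differed more among themselves. Of these, A was closest to Col-0 (r = 0.954 to 0.957) and C was farthest (0.934 to 0.942). Markers of root, shoot, vasculature and seed were each detected. In bulk seedlings, fewer cells of a type and less RNA per cell cannot be told apart.

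**Figure D1:**
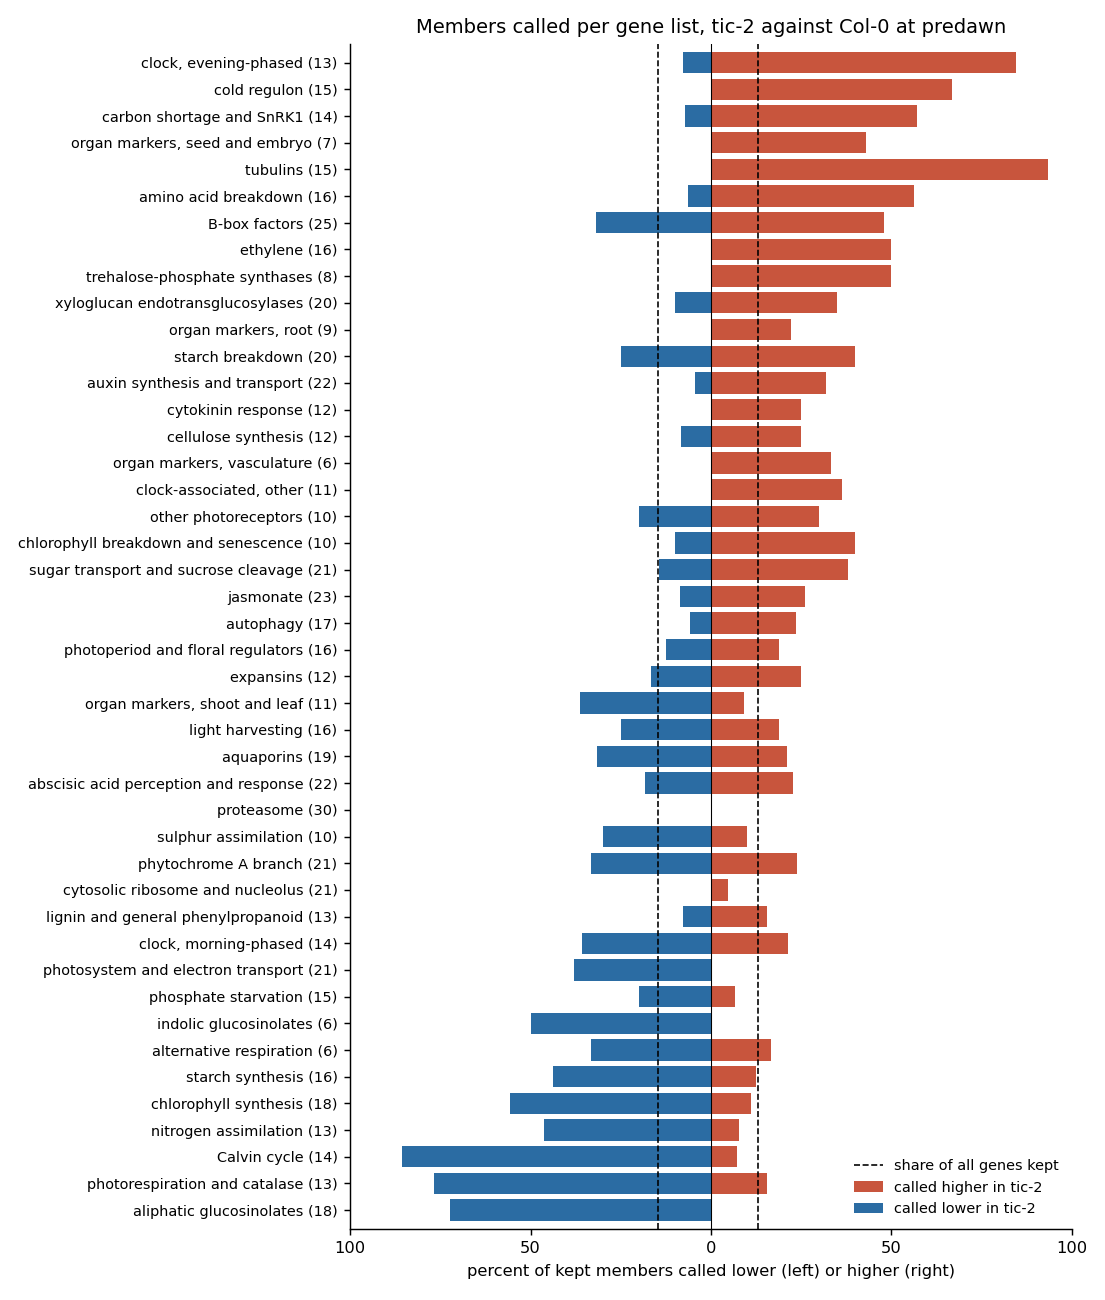
Percentage of the kept members of each gene group (number in brackets) that rose (red, to the right) or fell (blue, to the left) in tic-2 at predawn. Dashed lines mark the shares over all genes kept, 13.1% and 14.6%. Tubulins and the evening-phased clock genes had the highest shares of rises, and the Calvin cycle and the photorespiration group the highest shares of falls.

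Clock genes of the evening were high at predawn in the mutant. Of 13 genes kept in the group listed as evening-phased, 11 rose and 1 fell, with a median log2 fold change of 1.65. The phase of single members was not tested. PRR5, an earlier regulator of the same family as TOC1, measured 0.437, 0.522 and 0.365 FPKM in Col-0 and 17.1, 14.3 and 15.6 FPKM in tic-2 (log2 fold change 3.53, SE 0.15, adjusted p = 4.13e-08). LUX, the DNA-binding member of the evening complex, measured 1.32, 1.63 and 1.2 FPKM in Col-0 and 18.7, 20.05 and 18.1 FPKM in tic-2 (log2 fold change 3.07, SE 0.12, adjusted p = 1.13e-08). TOC1, a pseudo-response regulator that represses CCA1 and LHY in the evening, measured 8.77, 8.94 and 8.44 FPKM in Col-0 and 42, 42.5 and 42 FPKM in tic-2 (log2 fold change 2.15, SE 0.12, adjusted p = 2.28e-07). In each of the 3 genes the lowest mutant library was several-fold above the highest wild-type library. GI, a scaffold protein of the evening that acts in photoperiodic flowering, went from 0.134 to 5.14 FPKM, and BOA, a Myb factor related to LUX, from 0.806 to 10.5 FPKM. PRR3, which binds TOC1 and stabilises it, went from 0.45 to 10.6 FPKM. ELF3 and ELF4, the partners of LUX in the evening complex, rose by smaller amounts, from 14 to 39.3 FPKM for ELF3 and from 1.05 to 4.9 FPKM for ELF4. The member that fell was ZTL, a blue-light receptor of the F-box class that targets TOC1 and PRR5 for degradation (31.1 ± 0.881 FPKM in Col-0 and 22.9 ± 1.56 FPKM in tic-2, log2 fold change -0.43, SE 0.08, adjusted p = 0.00135).

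Morning genes were not lowered together. Of 14 kept, 3 rose and 5 fell (median log2 fold change -0.11). PRR7, a repressor that normally follows CCA1 and LHY, measured 0.891, 0.987 and 1.26 FPKM in Col-0 and 45.9, 41.8 and 52.9 FPKM in tic-2 (log2 fold change 4.55, SE 0.15, adjusted p = 4.19e-09). PRR9, its earlier relative, measured 0.0913, 0.433 and 0.167 FPKM in Col-0 and 10.07, 6.78 and 8.9 FPKM in tic-2 (log2 fold change 2.96, SE 0.15, adjusted p = 1.34e-07). Both genes were low in every wild-type library and far higher in every mutant library. RVE7, a Myb factor of the CCA1 family, went from 4.92 to 12.9 FPKM. The dawn Myb genes themselves were lower: LHY measured 374, 417 and 411 FPKM in Col-0 and 155, 151 and 167 FPKM in tic-2 (log2 fold change -1.34, SE 0.08, adjusted p = 4.23e-07). RVE8, an activator of evening genes from the same family, measured 141, 159 and 149 FPKM in Col-0 and 69.3, 63.4 and 69.8 FPKM in tic-2 (log2 fold change -1.14, SE 0.12, adjusted p = 2.82e-05). No wild-type library overlapped a mutant library for either gene. CCA1 fell less, with 259 ± 21.2 FPKM in Col-0 and 179.6 ± 20.5 FPKM in tic-2 (log2 fold change -0.53, SE 0.12, adjusted p = 0.00502), and RVE1 and RVE2 went from 169 to 82.5 FPKM and from 480.3 to 310.3 FPKM. LNK1, a co-activator that works with RVE8, measured 11.5, 13.8 and 16.7 FPKM in Col-0 and 22, 16.7 and 14 FPKM in tic-2, and the groups overlapped (adjusted p = 0.428).

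Among 11 other clock-associated genes 4 rose and none fell under the threshold (median log2 fold change 0.20). Without tic-2 library C, 1 member was called lower. GRP7 and GRP8, RNA-binding proteins of a slave oscillator driven by the clock, measured 163 ± 20.4 FPKM in Col-0 and 484 ± 65.8 FPKM in tic-2, and 160.1 ± 8.85 FPKM in Col-0 and 401 ± 57.5 FPKM in tic-2. TKL, a close relative of TIC, rose from 10.6 to 18.7 FPKM (log2 fold change 0.77, SE 0.14, adjusted p = 0.00181). SKIP, a splicing factor of the clock, rose from 81.2 to 102 FPKM, and its call was lost without Col-0 library B (log2 fold change 0.32, adjusted p = 0.0553) or C (0.29, adjusted p = 0.0676).

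**Figure D2:**
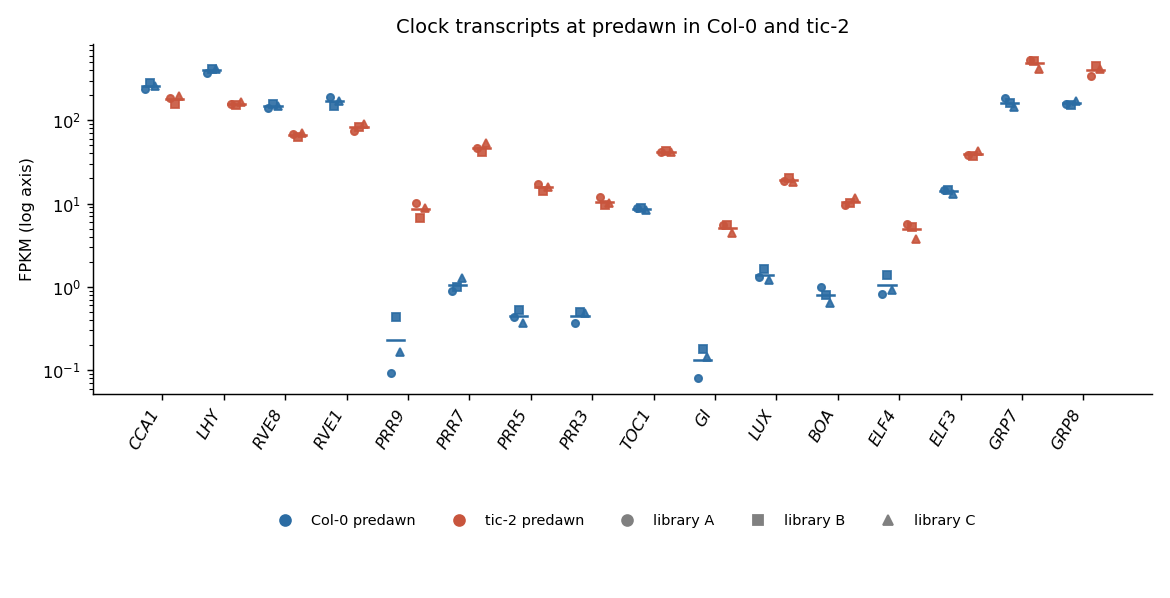
FPKM (log axis) of clock genes in each predawn library, Col-0 in blue and tic-2 in red, with 1 point per library and a line at the mean. For PRR7, PRR9, PRR5, PRR3, GI, LUX, BOA and TOC1 all tic-2 points stand above all Col-0 points, and for LHY, RVE8, RVE1 and CCA1 they stand below.

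The evening element, AAAATATCT on either strand, was counted in 300-base promoter windows (250 bases before to 50 after the annotated start, RefSeq TAIR10.1). It occurred in 3.01% of the promoters of all genes kept (577 of 19141), and in 2.49% of those of all 37897 annotated nuclear genes. The share was 7.72% among risen genes and 2.11% among fallen genes. Among genes that rose by at least 1 log2 unit it was 12.4% (67 of 541, exact binomial 95% interval 9.73 to 15.5), and among those that fell as far it was 2.07% (9 of 434). Across bins of log2 fold change, called or not, the share went from 0 of 73 promoters below -2 and 2.37% between -2 and -1, through 3.07% between 0 and 0.5 and 6.32% between 0.5 and 1, to 10.5% between 1 and 2 and 25.7% (18 of 70) above 2. In genes that rose by at least 1 the median match lay 53 bases before the start, against 95 bases in all genes kept. The position is negative in the direction of transcription, -53 and -95. The sequences around the match are shown for 9 genes picked with their values known, since they carry the element that the dawn Myb factors bind. Each is written 5′ to 3′ on the gene's strand, from RefSeq TAIR10.1, with the letters of the match in capitals, read as AAAATATCT or as its reverse complement AGATATTTT.
CCL (chr3:9827559-9827627, plus strand): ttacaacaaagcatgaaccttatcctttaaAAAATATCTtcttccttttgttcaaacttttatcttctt
MEE14 (chr2:6922189-6922257, minus strand): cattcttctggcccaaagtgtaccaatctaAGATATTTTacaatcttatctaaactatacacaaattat
PRR5 (chr5:8358695-8358763, minus strand): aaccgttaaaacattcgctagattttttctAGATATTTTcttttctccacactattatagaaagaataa
LUX (chr3:17182959-17183027, plus strand): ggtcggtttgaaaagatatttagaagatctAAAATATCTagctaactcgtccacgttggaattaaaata
TOC1 (chr5:24674782-24674850, plus strand): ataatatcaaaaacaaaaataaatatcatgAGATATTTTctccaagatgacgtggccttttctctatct
CAT3 (chr1:7142863-7142931, plus strand): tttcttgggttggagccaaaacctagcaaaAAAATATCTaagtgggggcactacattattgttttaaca
PORB (chr4:13725374-13725442, plus strand): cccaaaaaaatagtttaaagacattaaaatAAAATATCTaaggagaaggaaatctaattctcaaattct
GRP7 (chr2:9266595-9266663, minus strand): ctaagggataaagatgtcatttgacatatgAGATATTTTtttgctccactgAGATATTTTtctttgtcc
COR27 (chr5:17199911-17199979, minus strand): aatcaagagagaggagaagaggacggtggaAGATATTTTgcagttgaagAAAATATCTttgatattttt

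COR27 and GRP7 each hold more than 1 copy, with 2 in COR27 and 3 in GRP7, of which the window printed shows 2. The other 7 motifs were counted in the same windows on either strand, and none of the 8 contains another. The related CCA1-binding site AAAAATCT stood in 8.05% of all promoters, 9.07% of risen and 7.66% of fallen genes. Among genes that rose by at least 1 log2 unit it stood in 7.39%, and in 6.91% of those that fell as far, both below the share of all promoters. The G-box CACGTG, which PIF factors, HY5 and ABA factors bind, stood in 9.07% of all, 13.1% of genes that rose by at least 1 and 13.6% of those that fell as far. The E-box variant CACATG stood in 12.9%, 18.7% and 16.8%. The I-box core GATAAG was at 14.9%, 23.1% and 18.2%, and the DRE core CCGAC, bound by CBF factors, at 16.3%, 15.7% and 13.6%. The telo-box AAACCCTA (5.58%, 1.66% and 3.69%) and the site II element TGGGCC (18.8%, 8.32% and 10.8%), both common in promoters of housekeeping and ribosomal protein genes, were rarer in strongly changed genes of either direction. Among all called genes the site II element differed by direction, with 11.1% of risen and 21.4% of fallen genes. The telo-box stood in 3.25% and 4.15% of these. These shares are descriptions of letters in a window and say nothing of binding.

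**Figure D3:**
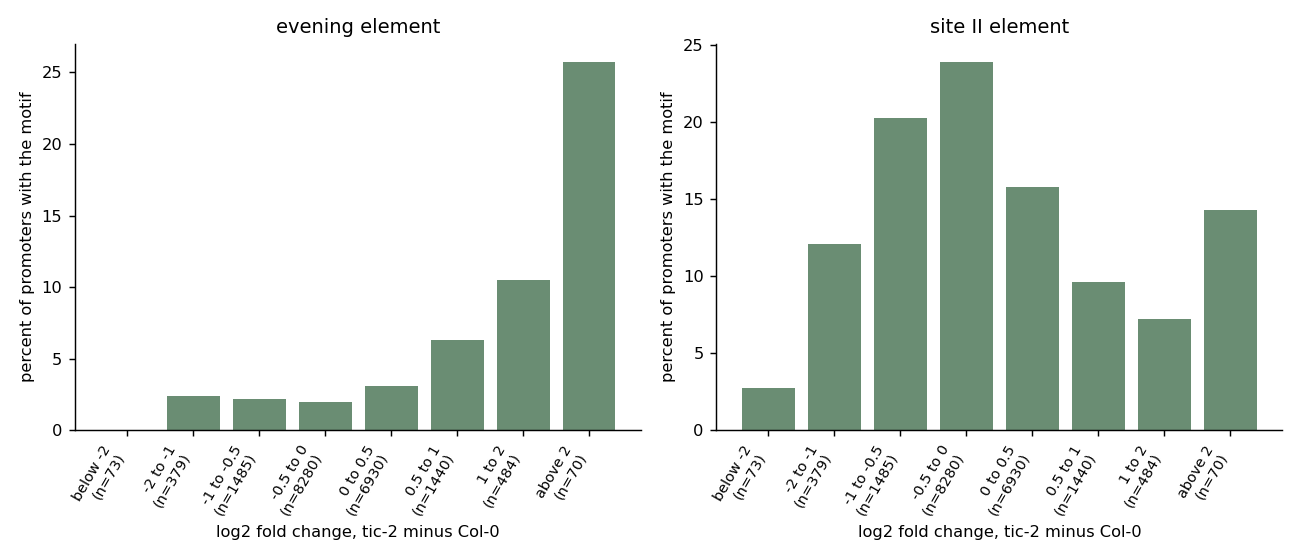
Percentage of promoters holding the evening element AAAATATCT or the site II element TGGGCC in bins of log2 fold change in tic-2 at predawn, with the number of promoters per bin. The evening element goes from 0% below -2 to 25.7% above 2, and the site II element is highest, at 23.9%, between -0.5 and 0.

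Components of the phytochrome A branch changed in both directions. Of 21 kept, 5 rose and 7 fell (median log2 fold change -0.07). PHYA, the far-red receptor, measured 31.1, 33.1 and 35.8 FPKM in Col-0 and 86.5, 90.8 and 66.5 FPKM in tic-2 (log2 fold change 1.25, SE 0.12, adjusted p = 1.28e-05). FHY1 and FHL, which carry PHYA into the nucleus, went from 9.41 to 20.6 FPKM and from 19 to 41.2 FPKM. All 3 were higher in every mutant library. Their transcriptional activators FHY3 and FAR1 did not pass the threshold with all libraries in the fit. FHY3 measured 18, 20.5 and 23.2 FPKM in Col-0 and 27.1, 26.4 and 19.9 FPKM in tic-2. It passed with array weights (log2 fold change 0.31, adjusted p = 0.0108) and without both tic-2 C libraries (0.37, adjusted p = 0.0203). FAR1 measured 8.57, 9.39 and 8.99 FPKM in Col-0 and 8.94, 8.58 and 8.06 FPKM in tic-2. HFR1, a bHLH protein that restrains PIFs, rose from 29.6 to 57.5 FPKM. On the side of output and repression, HY5, the bZIP factor of photomorphogenesis, measured 20.1, 23 and 20.5 FPKM in Col-0 and 9.16, 10.03 and 12.2 FPKM in tic-2 (log2 fold change -0.96, SE 0.13, adjusted p = 0.0002), and its homologue HYH measured 90.1, 99.5 and 99.9 FPKM in Col-0 and 23.7, 16 and 27.6 FPKM in tic-2 (log2 fold change -2.09, SE 0.18, adjusted p = 7.95e-06). HYH was the largest fall of the group. SPA1, SPA3 and SPA4, partners of the E3 ligase COP1, fell from 40.5 to 23.7 FPKM, from 49.6 to 17 FPKM and from 18.9 to 7.38 FPKM. COP1 itself measured 21.8 ± 2.33 FPKM in Col-0 and 17.6 ± 2.34 FPKM in tic-2 (log2 fold change -0.30, adjusted p = 0.0716), which passed without Col-0 library A (adjusted p = 0.0408) or tic-2 library A (0.029).

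Among 10 other photoreceptors 3 rose and 2 fell (median log2 fold change 0.14). PHOT1, the blue-light receptor of phototropism, rose from 68.5 to 172 FPKM, CRY2 from 55.8 to 87.2 FPKM and the UV-B receptor UVR8 from 48.6 to 82.3 FPKM. CRY3 fell from 9.97 to 5.57 FPKM. PHYD was called lower with overlapping groups (4.58, 5.84 and 5.77 FPKM in Col-0 and 4.71, 3.71 and 2.79 FPKM in tic-2, adjusted p = 0.0323). Its call was lost without Col-0 library B or C or tic-2 library B or C, each of which left 1 fall in the group. PHYB, the main red-light receptor, measured 24.9, 29.7 and 29.1 FPKM in Col-0 and 45.3, 38.5 and 28.5 FPKM in tic-2 (log2 fold change 0.39, adjusted p = 0.0601), and passed without tic-2 library C (0.57, adjusted p = 0.00315).

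B-box zinc-finger factors, which relay clock and light signals, moved in both directions. Of 25 kept, 12 rose and 8 fell (median log2 fold change 0.46). The genotypes did not overlap in any of the 25, to be read against 44.7% of all genes without overlap. BBX32, a repressor of light responses that acts on HY5 through BBX21, measured 13.9, 20.6 and 16.4 FPKM in Col-0 and 0.931, 0.548 and 1.1 FPKM in tic-2 (log2 fold change -3.27, SE 0.22, adjusted p = 1.06e-06). BBX30 and BBX31, small microproteins of the same family, went from 18.2 to 1.94 FPKM and from 9.07 to 1.04 FPKM, log2 fold changes -2.79 and -2.31. COL7 and BBX18 fell from 59.7 to 18.4 FPKM and from 49.9 to 14.6 FPKM. The wild-type libraries held all the high values of these 5 genes. In the opposite direction BBX8 measured 3.45, 3.94 and 3.26 FPKM in Col-0 and 12.5, 14 and 14.8 FPKM in tic-2 (log2 fold change 1.70, SE 0.09, adjusted p = 2.28e-07). COL9, a repressor of flowering, rose from 9.96 to 38 FPKM, BBX28 from 26.4 to 73.8 FPKM and BBX17 from 4.05 to 13 FPKM.

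Of 16 other photoperiod and floral regulators 3 rose and 2 fell, near the share over all genes (median log2 fold change 0.08). Without tic-2 library C only 1 rise was called. SVP, a MADS-box repressor of flowering, measured 40.5, 37.9 and 39 FPKM in Col-0 and 60.9, 73.2 and 95.2 FPKM in tic-2 (log2 fold change 0.93, SE 0.15, adjusted p = 0.000886). SOC1, a MADS-box activator of flowering, measured 17, 18.3 and 18.4 FPKM in Col-0 and 13, 8.47 and 11.1 FPKM in tic-2 (log2 fold change -0.69, SE 0.13, adjusted p = 0.00176). SVP was higher and SOC1 lower in every mutant library, and SVP was highest in library C. SNZ, an AP2-type floral repressor, fell from 28.2 to 11.7 FPKM.

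Growth genes included PIF4, the bHLH factor that drives hypocotyl elongation at the end of the night. PIF4 measured 5.55, 6.78 and 6.93 FPKM in Col-0 and 86.4, 78.3 and 74.4 FPKM in tic-2 (log2 fold change 3.45, SE 0.18, adjusted p = 1.72e-07). Its mean was 12.4-fold higher, with no overlap. At postdusk the 2 genotypes measured 21.8 ± 4.59 FPKM in Col-0 and 30.5 ± 7.92 FPKM in tic-2.

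Tubulins, the subunits of microtubules, rose almost as a class. Of 15 kept, 14 rose and none fell, with a median log2 fold change of 0.58, and TUA1 was the member that was not called. Without Col-0 library C, 8 were called. TUB5 measured 47.9, 46.3 and 37.5 FPKM in Col-0 and 118, 143 and 158 FPKM in tic-2 (log2 fold change 1.64, SE 0.13, adjusted p = 3.91e-06). TUB9 measured 42.9, 40.9 and 38.3 FPKM in Col-0 and 82.4, 96 and 76.8 FPKM in tic-2 (log2 fold change 1.04, SE 0.09, adjusted p = 8.65e-06). For both genes every mutant library was well above every wild-type library. TUA3 and TUA5 went from 73.9 to 142 FPKM and from 70.6 to 146 FPKM. TUA3 and TUA5, TUA2 and TUA4, and TUB2 and TUB3 are near-identical copies, and each is uncertain by itself, since how shared reads were counted is not known here.

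Wall genes moved less as classes. Of 20 xyloglucan endotransglucosylases, enzymes that cut and rejoin wall xyloglucan, 7 rose and 2 fell (median log2 fold change 0.42). XTH15 measured 4.82, 3.2 and 2.998 FPKM in Col-0 and 8.59, 38.2 and 52.3 FPKM in tic-2 (log2 fold change 2.56, SE 0.47, adjusted p = 0.00177), with mutant library A well below B and C. XTH7 fell from 135 to 61.9 FPKM and XTH6 from 63.8 to 28.1 FPKM, while XTH30 and XTH17 rose from 9.07 to 18.2 FPKM and from 9.79 to 18 FPKM. Of 12 expansins, proteins that loosen walls, 3 rose and 2 fell (median 0.08). EXPA9 rose from 15 to 27 FPKM and EXPA10 fell from 41.9 to 24.7 FPKM. Only 1 rise was called without Col-0 library A or C or tic-2 library B, and only 1 fall without any single one of Col-0 A, B or C, tic-2 B or C, Col-0 postdusk C or tic-2 postdusk A. Of 12 cellulose synthesis genes 3 rose and 1 fell (median 0.27). The catalytic subunit CESA2 rose from 26.9 to 39.7 FPKM, and the endoglucanase KOR1 from 179 to 245 FPKM. The main subunits of primary walls did not pass: CESA1 measured 97.6, 98.9 and 95.6 FPKM in Col-0 and 122, 125 and 94.4 FPKM in tic-2, and CESA3 95.2, 96.8 and 97.4 FPKM in Col-0 and 129.9, 139 and 86.9 FPKM in tic-2. In both genes library C was low and A and B were high, and without tic-2 library C both passed (log2 fold changes 0.34 and 0.47) and the group had 7 rises. CESA6 measured 68.3, 69 and 69.2 FPKM in Col-0 and 75.4, 83.6 and 51.8 FPKM in tic-2 (log2 fold change 0.00). The single fall, CESA5, was lost without any one Col-0 predawn library.

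Aquaporins, the water channels, moved both ways, with 4 rises and 6 falls among 19 (median log2 fold change 0.00). The plasma-membrane channels PIP2;1, PIP1;2, PIP1;1 and PIP2;3 fell. PIP2;1 measured 770.4, 719 and 774 FPKM in Col-0 and 277, 344 and 384 FPKM in tic-2 (log2 fold change -1.18, SE 0.14, adjusted p = 6.35e-05). PIP1;2 went from 1251 to 720.3 FPKM and PIP1;1 from 248 to 119.8 FPKM. The 3 mutant libraries were below the 3 wild-type libraries in each of the 4. The rises (TIP2;1, TIP1;2, PIP2;8 and PIP1;3, log2 fold changes 0.61, 0.52, 0.52 and 0.48) were not stable to single libraries. Without Col-0 library B, tic-2 library B or tic-2 library C 1 rise was called, and 0 without Col-0 library C.

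Of 22 genes of auxin synthesis and transport 7 rose and 1 fell (median log2 fold change 0.33). TAA1, the aminotransferase that makes the auxin precursor indole-3-pyruvate, measured 5.55, 6.41 and 5.56 FPKM in Col-0 and 10.7, 12 and 15.1 FPKM in tic-2 (log2 fold change 0.98, SE 0.13, adjusted p = 0.000159). LAX1, an auxin influx carrier, measured 22.1, 25.9 and 24.5 FPKM in Col-0 and 46.1, 50.9 and 52.6 FPKM in tic-2 (log2 fold change 1.01, SE 0.13, adjusted p = 0.000177). The efflux transporter ABCB19 rose from 47.7 to 83.6 FPKM and LAX3 from 16.1 to 25.5 FPKM, while TAR2, a relative of TAA1, fell from 4.05 to 2.32 FPKM. YUC8, which converts the precursor to auxin and is a PIF4 target, measured 2.31, 2.52 and 2.03 FPKM in Col-0 and 2.78, 3.94 and 4.18 FPKM in tic-2 and did not pass (log2 fold change 0.49, adjusted p = 0.0694), although the 3 mutant values were the higher ones. It passed without tic-2 library A (adjusted p = 0.0297) or Col-0 postdusk library B (0.0262).

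**Figure D4:**
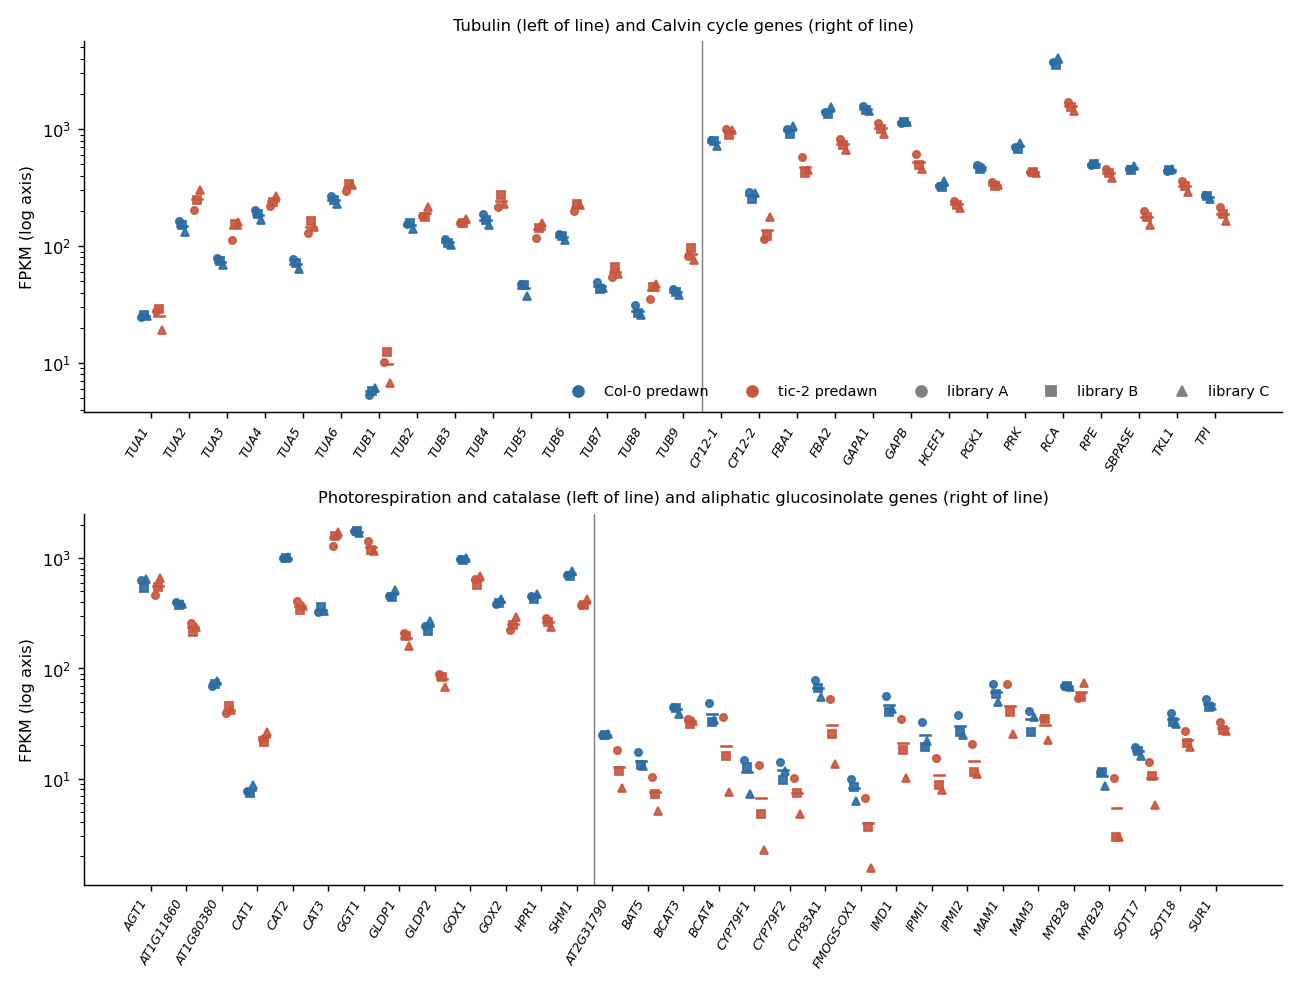
FPKM (log axis) of members of 4 gene groups in the 6 predawn libraries, Col-0 in blue and tic-2 in red, with a line at the mean. Tubulins other than TUA1 stand higher in tic-2, and Calvin cycle, photorespiration and aliphatic glucosinolate genes stand mostly lower, apart from CAT1, CAT3 and CP12-1.

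Genes of other hormones rose more often than they fell. Of 16 ethylene genes 8 rose and none fell (median log2 fold change 0.46), or 5 without Col-0 library C or tic-2 library B. ACS8, an isoform of the rate-limiting synthase and a known clock target, measured 0.438, 0.375 and 0.485 FPKM in Col-0 and 1.39, 2.9 and 2.54 FPKM in tic-2 (log2 fold change 1.16, SE 0.17, adjusted p = 0.000296). ACO4, the oxidase of the last step, rose from 169.6 to 342 FPKM, and the receptor ERS1 from 45.7 to 80.6 FPKM. Of 12 cytokinin response genes 3 rose and none fell (median 0.29), or 6 rose without tic-2 library B. ARR4 and ARR16, type-A response regulators that damp the signal, went from 27.9 to 49.8 FPKM and from 2.08 to 4.87 FPKM, and the oxidase CKX5 from 1.28 to 2.42 FPKM. Of 23 jasmonate genes 6 rose and 2 fell (median 0.12). The repressors JAZ1 and JAZ2 rose from 9.76 to 18.2 FPKM and from 16.1 to 32.7 FPKM, and the cyclase AOC2 from 15.7 to 34.7 FPKM. MYC4, a target of the repressors, fell from 33 to 18.4 FPKM. VSP2, a vegetative storage protein induced by jasmonate, measured 40.01, 43.7 and 66.9 FPKM in Col-0 and 11.8, 9.5 and 5.15 FPKM in tic-2 (log2 fold change -2.41, SE 0.60, adjusted p = 0.01). COI1, the jasmonate receptor, measured 23.6, 22.9 and 24.9 FPKM in Col-0 and 22.2, 23.4 and 27.3 FPKM in tic-2 (adjusted p = 0.89).

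Genes of abscisic acid perception and response moved both ways, with 5 rises and 4 falls among 22 (median log2 fold change -0.02). The receptor PYL5 measured 10.9, 8.32 and 9.17 FPKM in Col-0 and 17.7, 39 and 59.9 FPKM in tic-2 (log2 fold change 1.78, SE 0.31, adjusted p = 0.00112), with library A lowest among the mutant values. HAB1, a phosphatase that the receptors inhibit, measured 72.1, 89 and 91.3 FPKM in Col-0 and 46.9, 33.7 and 27.8 FPKM in tic-2 (log2 fold change -1.22, SE 0.16, adjusted p = 0.000171). The bZIP factor ABF3 fell from 89.4 to 54.8 FPKM. Without Col-0 library B, Col-0 library C or tic-2 library B, each in turn, 3 rises and 2 falls were called.

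The cold regulon, here a group of genes induced by low temperature that includes CBF factors, stood higher in these seedlings, which were grown at 22 °C. Whether the rises passed through CBF factors was not tested. Of 15 kept, 10 rose and none fell (median log2 fold change 0.99), though without tic-2 library A 1 member was called lower. COR413IM1, a protein of the chloroplast inner envelope, measured 6.55, 10.3 and 7.24 FPKM in Col-0 and 290.2, 272 and 277 FPKM in tic-2 (log2 fold change 4.98, SE 0.15, adjusted p = 1.41e-09). COR15A, a chloroplast cryoprotectant, measured 8.08, 11.1 and 9.11 FPKM in Col-0 and 73.6, 32.4 and 38.8 FPKM in tic-2 (log2 fold change 2.16, SE 0.26, adjusted p = 7.99e-05). The dehydrin COR47 measured 30.5, 28.4 and 25.9 FPKM in Col-0 and 143, 157 and 209 FPKM in tic-2 (log2 fold change 2.53, SE 0.21, adjusted p = 6.43e-06). Mutant libraries were above wild-type libraries for all 3, with COR413IM1 even across the mutant libraries and COR15A highest in A. COR27, a cold-induced repressor that acts in the clock, and AT4G33980 went from 5.16 to 15.4 FPKM and from 0.451 to 6.83 FPKM. CBF2, a CBF factor, rose from 2.54 to 6.05 FPKM (adjusted p = 0.0155), and its call was lost without Col-0 library C (0.88, adjusted p = 0.064) or tic-2 library A (0.83, adjusted p = 0.0503). CBF1 and CBF3 were below the filter, with 0 to 0.0846 FPKM and 0.14 to 0.688 FPKM in the predawn libraries.

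Genes that plants turn on when carbon is short were higher in the mutant at the end of the night, although the medium held 3% sucrose. Of 14 genes of the carbon-shortage and SnRK1 group 8 rose and 1 fell (median log2 fold change 0.89). DIN6, an asparagine synthetase induced in darkness, measured 52.2, 28.8 and 65.5 FPKM in Col-0 and 289.7, 387 and 399 FPKM in tic-2 (log2 fold change 2.91, SE 0.35, adjusted p = 8.25e-05). DIN1, a sulphurtransferase-like protein of senescence, measured 52.6, 26 and 54.8 FPKM in Col-0 and 184, 431 and 685 FPKM in tic-2 (log2 fold change 3.14, SE 0.50, adjusted p = 0.000684). The dormancy-associated genes DRM1 and AT2G33830 (called DRM2 here, not the DNA methyltransferase) measured 53.5 ± 4.55 FPKM in Col-0 and 236 ± 55.1 FPKM in tic-2, and 20.6 ± 3.63 FPKM in Col-0 and 308 ± 40.6 FPKM in tic-2. No mutant library overlapped a wild-type library for these genes, and DIN1 was lowest in A and highest in C. DIN9, a mannose-6-phosphate isomerase, was the member that fell, from 3.39 to 1.47 FPKM.

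Genes of amino acid breakdown also rose more often than they fell, with 9 rises and 1 fall among 16 (median log2 fold change 0.55). BCAT2, the branched-chain aminotransferase of the mitochondrion, measured 1.42, 2.55 and 2.07 FPKM in Col-0 and 8.94, 15.1 and 22 FPKM in tic-2 (log2 fold change 2.37, SE 0.27, adjusted p = 5.42e-05). The next steps, DIN4 (a subunit of the branched-chain ketoacid dehydrogenase), IVD and MCCA, went from 21.9 to 68.8 FPKM, from 24.8 to 70.4 FPKM and from 14.2 to 40.5 FPKM. In these 4 genes mutant library A was the lowest mutant value and still above every wild-type value. TAT7, a tyrosine aminotransferase, fell from 54 to 29.4 FPKM. Of 8 trehalose-phosphate synthases 4 rose and none fell (median 0.43), or 2 without Col-0 library A, Col-0 library C or tic-2 library C. TPS11 rose from 21 to 61.1 FPKM and TPS10 from 22.9 to 37.9 FPKM. TPS1, the active enzyme, measured 9.36 ± 0.235 FPKM in Col-0 and 10.9 ± 0.415 FPKM in tic-2 (adjusted p = 0.102). Of 17 autophagy genes 4 rose and 1 fell (median 0.11). ATG8E, a protein of the autophagosome membrane, rose from 49 to 119 FPKM, and the cargo receptor NBR1 from 79.6 to 119 FPKM. The fall was ATG5 (log2 fold change -0.35). It was lost without Col-0 library B, and without tic-2 library A 2 falls were called.

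Starch breakdown genes moved in both directions. Of 20, 8 rose and 5 fell (median log2 fold change 0.36). AMY3, the plastid alpha-amylase, measured 1.61, 2.14 and 2.85 FPKM in Col-0 and 21.1, 17.7 and 13.4 FPKM in tic-2 (log2 fold change 2.52, SE 0.17, adjusted p = 1.32e-06). The phosphorylases PHS1 and PHS2 went from 10.5 to 40.7 FPKM and from 14.2 to 27.4 FPKM, the debranching enzyme ISA3 from 5.07 to 18.9 FPKM, and GWD1, the dikinase that opens the granule surface, from 21.2 to 35.6 FPKM. All of these had mutant values above every wild-type value. BAM3, the main beta-amylase of leaf starch at night, measured 255, 211 and 251 FPKM in Col-0 and 19.7, 32.4 and 44.3 FPKM in tic-2 (log2 fold change -2.92, SE 0.22, adjusted p = 3.23e-06). BAM9 measured 260.2, 167 and 239 FPKM in Col-0 and 37.3, 55.9 and 55.6 FPKM in tic-2 (log2 fold change -2.14, SE 0.18, adjusted p = 6.45e-06). For both, every wild-type library was several-fold above every mutant library. LSF2, a glucan phosphatase, and BAM6 fell from 20.9 to 9.32 FPKM and from 1.67 to 0.312 FPKM.

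Of 16 starch synthesis genes 2 rose and 7 fell (median log2 fold change -0.39). QQS, a short orphan protein that modulates starch content, measured 42.7, 47.9 and 42.1 FPKM in Col-0 and 0.904, 0.658 and 0.66 FPKM in tic-2 (log2 fold change -4.70, SE 0.12, adjusted p = 6.17e-10). It was below 1 FPKM in every mutant library and high in every wild-type library. GBSS1, the granule-bound synthase of amylose, fell from 297 to 128 FPKM (log2 fold change -1.20, SE 0.24, adjusted p = 0.00301), and the soluble synthase SS2 from 25.7 to 12.4 FPKM. SBE2.1, a branching enzyme, rose from 27.3 to 45.5 FPKM. The falls numbered 4 without Col-0 library B, tic-2 library B or tic-2 library C, and 3 without Col-0 library C. The rises numbered 1 without Col-0 library A, Col-0 library C or tic-2 library B.

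Of 21 genes of sugar transport and sucrose cleavage 8 rose and 3 fell (median log2 fold change 0.12), with 5 falls without tic-2 library A. STP1, a hexose importer of the plasma membrane, measured 70.8, 50.1 and 78.5 FPKM in Col-0 and 182, 289.5 and 216 FPKM in tic-2 (log2 fold change 1.77, SE 0.26, adjusted p = 0.000359). STP14 and STP13, of the same family, and TMT1, a sugar importer of the vacuole, rose from 3.64 to 11.1 FPKM, from 3.55 to 7.6 FPKM and from 10.9 to 19.5 FPKM. SWEET15, a sucrose exporter, measured 12.7, 16.3 and 19.5 FPKM in Col-0 and 1.13, 0.669 and 0.485 FPKM in tic-2 (log2 fold change -3.28, SE 0.23, adjusted p = 1.32e-06). SWEET2, a sugar transporter of the vacuole, fell from 28.5 to 7.27 FPKM.

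Nuclear genes of carbon fixation fell nearly throughout. Of 14 Calvin cycle genes 12 fell and 1 rose (median log2 fold change -0.65). The genotypes did not overlap in any of the 14, to be read against 44.7% of all genes without overlap. SBPASE, the bisphosphatase of the regeneration phase, measured 461, 452 and 487 FPKM in Col-0 and 199.8, 179 and 151 FPKM in tic-2 (log2 fold change -1.40, SE 0.10, adjusted p = 2.5e-06). RCA, which reactivates rubisco, measured 3746, 3536 and 4042 FPKM in Col-0 and 1720.4, 1554 and 1438 FPKM in tic-2 (log2 fold change -1.27, SE 0.13, adjusted p = 2.26e-05). GAPB, a subunit of the reductive dehydrogenase, measured 1136, 1159.8 and 1156 FPKM in Col-0 and 614, 492 and 459 FPKM in tic-2 (log2 fold change -1.15, SE 0.11, adjusted p = 1.98e-05). In all 3 the mutant libraries were low and close together. FBA1, an aldolase, fell from 993 to 479 FPKM. CP12-1, a regulatory linker protein, rose from 774 to 959 FPKM, a call that was lost without Col-0 library B, Col-0 library C, tic-2 library A or tic-2 library C.

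Photorespiration, the recycling of the product of rubisco's oxygenase reaction, went the same way. Of 13 genes in the group with catalases 10 fell and 2 rose (median log2 fold change -0.71). CAT2, the leaf catalase that removes photorespiratory hydrogen peroxide, measured 1009, 1004 and 1031 FPKM in Col-0 and 410.1, 341 and 366 FPKM in tic-2 (log2 fold change -1.45, SE 0.13, adjusted p = 8.29e-06). CAT3, the catalase with an evening phase whose promoter is printed above, measured 327, 359 and 332 FPKM in Col-0 and 1296, 1606 and 1734 FPKM in tic-2 (log2 fold change 2.17, SE 0.14, adjusted p = 7.06e-07). Catalase transcripts therefore moved in opposite directions, with CAT1 rising from 7.94 to 23.7 FPKM. GLDP1 and GLDP2, the P-protein of glycine decarboxylase, and SHM1, the serine hydroxymethyltransferase, fell from 470.5 to 189.5 FPKM, from 244 to 80.6 FPKM and from 721 to 390.0 FPKM.

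Of 18 chlorophyll synthesis genes 10 fell and 2 rose (median log2 fold change -0.47). CHLH, the large subunit of magnesium chelatase, measured 571, 569 and 634 FPKM in Col-0 and 355, 271 and 225 FPKM in tic-2 (log2 fold change -1.08, SE 0.17, adjusted p = 0.000678). HEMA1, the first committed enzyme, fell from 312 to 222 FPKM, CHLG, the chlorophyll synthase, from 125 to 69.8 FPKM, and PCB2, a reductase of the vinyl group, from 32 to 17.1 FPKM. The light-dependent protochlorophyllide reductases diverged. PORB, whose promoter is printed above, measured 186, 200.03 and 166 FPKM in Col-0 and 862, 782 and 694 FPKM in tic-2 (log2 fold change 2.08, SE 0.14, adjusted p = 1.06e-06). PORC measured 84.7, 87.6 and 92.7 FPKM in Col-0 and 56.6, 45.5 and 40.5 FPKM in tic-2 (log2 fold change -0.89, SE 0.12, adjusted p = 0.000157). PORB was high and PORC low in every mutant library. PORA rose from 1.81 to 4.73 FPKM, a call lost with a pseudocount of 0.1 in place of 1. Of 10 chlorophyll breakdown and senescence genes 4 rose and 1 fell (median 0.14), with 2 falls without tic-2 library A. NYC1, a chlorophyll b reductase, and PPH, a pheophytinase, rose from 29 to 44.3 FPKM and from 30.6 to 41.7 FPKM, and CLH1, a chlorophyllase, fell from 31.1 to 14 FPKM.

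Light-harvesting genes were mixed, with 3 rises and 4 falls among 16 (median log2 fold change 0.01). Without Col-0 library A, Col-0 library B or tic-2 library B, 2 falls were called. LHCA4 measured 1816, 1797 and 1968 FPKM in Col-0 and 3811, 3239.5 and 3138 FPKM in tic-2 (log2 fold change 0.86, SE 0.13, adjusted p = 0.000453). LHCA3 rose from 1206 to 1941 FPKM. LHCA5 fell from 126 to 62.5 FPKM and LHCB4.3 from 12.3 to 5.36 FPKM. Copies of LHCB1 and LHCB2 share reads and are uncertain as single genes. Of 21 nuclear photosystem and electron transport genes 8 fell and none rose (median -0.24). ATPD, the delta subunit of the chloroplast ATP synthase, measured 414 ± 16.5 FPKM in Col-0 and 225 ± 14.8 FPKM in tic-2 (log2 fold change -0.88, SE 0.09, adjusted p = 1.8e-05), and PSBS, the sensor of non-photochemical quenching, fell from 637 to 390.3 FPKM. PSBQ1, of the oxygen-evolving complex, and the plastocyanin PETE2 fell from 917 to 562 FPKM and from 1711 to 1134 FPKM. Among 83 plastid-encoded genes kept, 13 fell (15.7%, near the 14.6% over all genes) and 0 rose. Their Col-0 means were low, from 1.37 FPKM for ATCG01190, which was at 0 in tic-2, to 33.6 FPKM for ATCG00070. None of 31 mitochondrion-encoded genes was called in either direction by limma, with 2 higher and 0 lower at an unadjusted p under 0.05 and none by voom on recovered reads. Levels of organelle transcripts depend on how RNA was selected, which the labels do not give.

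Genes of nitrogen, sulphur and phosphate nutrition formed 3 groups. Of 13 nitrogen assimilation genes 6 fell and 1 rose (median log2 fold change -0.48). NIA2, the main nitrate reductase, measured 1126, 1305 and 1098 FPKM in Col-0 and 627, 419.6 and 263 FPKM in tic-2 (log2 fold change -1.51, SE 0.28, adjusted p = 0.00168). NIR1, the nitrite reductase of the next step, measured 77.6, 94.9 and 71.5 FPKM in Col-0 and 47.1, 31.6 and 20.1 FPKM in tic-2 (log2 fold change -1.35, SE 0.24, adjusted p = 0.00131). Both were lower in every mutant library, with A highest and C lowest of the 3. NIA1, the minor nitrate reductase, measured 73.9, 99.8 and 61.5 FPKM in Col-0 and 137, 52.1 and 22.6 FPKM in tic-2, and its mutant values spanned the wild-type range (adjusted p = 0.621). The ferredoxin-dependent glutamate synthase GLU1 fell from 229.7 to 126 FPKM. The rise, GLN1;1 (log2 fold change 0.84), was lost without any 1 Col-0 predawn library or tic-2 library B or C. Of 10 sulphur assimilation genes 3 fell and 1 rose (median -0.03). APR1 and APR2, the reductases that control the pathway, fell from 82.4 to 46.4 FPKM and from 63.2 to 21.7 FPKM. The rise, SULTR1;2 (log2 fold change 0.65), was lost without Col-0 library A or B or any 1 tic-2 predawn library, and 3 rises were called without Col-0 library C or tic-2 library A and 2 without tic-2 postdusk library C.

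Of 15 phosphate starvation genes 3 fell and 1 rose, near the shares over all genes (median log2 fold change -0.29), and here the mutant libraries disagreed. The median difference from the Col-0 mean was -1.28 in tic-2 library A, 0.157 in B and 0.0157 in C. PAP17, an acid phosphatase, measured 149.7, 166 and 168 FPKM in Col-0 and 58.5, 121 and 82.4 FPKM in tic-2 (log2 fold change -0.94, SE 0.22, adjusted p = 0.00683). SQD1, of sulpholipid synthesis, measured 202, 228 and 237 FPKM in Col-0 and 87.9, 139 and 127 FPKM in tic-2 (log2 fold change -0.93, SE 0.18, adjusted p = 0.00228). Both were lowest in library A. MGD2, of galactolipid synthesis, measured 65.1, 77.6 and 78.9 FPKM in Col-0 and 15.3, 49.4 and 43.7 FPKM in tic-2 (log2 fold change -1.16), and its call was lost without any 1 Col-0 predawn library (adjusted p = 0.0538, 0.0842 and 0.0866 without A, B and C). The rise, PHO1 (log2 fold change 0.49), was lost without any 1 of Col-0 A, B or C or tic-2 B or C.

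Aliphatic glucosinolate genes, which make methionine-derived defence compounds, had lower means in tic-2 without exception, but with a wide spread. Of 18 kept, all with a log2 fold change below 0, 13 fell and none rose (median log2 fold change -0.91). CYP83A1, which converts the aldoximes, measured 78.7, 66.2 and 54.8 FPKM in Col-0 and 53.1, 25.5 and 13.6 FPKM in tic-2 (log2 fold change -1.28, SE 0.39, adjusted p = 0.028). IPMI1, of side-chain elongation, measured 32.9, 19.4 and 22 FPKM in Col-0 and 15.4, 8.78 and 7.92 FPKM in tic-2 (log2 fold change -1.16, SE 0.31, adjusted p = 0.0146). Mutant library A was the highest of the 3 in both, and wild-type library A was the highest of its group. The call of IPMI1 was lost without Col-0 A or tic-2 B or C, and that of CYP83A1 without those or Col-0 B (adjusted p at most 0.0966). The number of falls depended on single libraries: 3 falls were called without Col-0 library A, 5 without tic-2 library B or C, and 8 without Col-0 library B. The regulator MYB28 measured 69.1, 69.7 and 68.1 FPKM in Col-0 and 54, 55.5 and 74.2 FPKM in tic-2 and did not pass (adjusted p = 0.227). It passed without tic-2 library C (log2 fold change -0.33, adjusted p = 0.00446) and with array weights (-0.29, adjusted p = 0.00165). MYB29 measured 11.6, 11.4 and 8.63 FPKM in Col-0 and 10.2, 2.96 and 2.97 FPKM in tic-2 (adjusted p = 0.0389, and 0.0575 to 0.15 without any 1 of Col-0 A, B or C or tic-2 B or C). Of 6 indolic glucosinolate genes 3 fell and none rose (median -0.29), or 1 without Col-0 library A or tic-2 library C, and 1 rise was called without tic-2 library A, Col-0 postdusk library A or tic-2 postdusk library C. CYP83B1 fell from 77.7 to 43.2 FPKM.

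Housekeeping and other metabolic groups were counted in the same way. Of 30 proteasome subunits none was called in either direction by limma (median log2 fold change -0.03), with 1 higher and 0 lower at an unadjusted p under 0.05 and none by voom on recovered reads, and 1 was called lower without tic-2 library C or tic-2 postdusk library C. Of 21 cytosolic ribosome and nucleolus genes 1 rose and none fell (median -0.09). It was NUC1, a nucleolin (104 ± 2.63 FPKM in Col-0 and 129 ± 10.3 FPKM in tic-2), which was lost without Col-0 library C. Without tic-2 postdusk library C 1 fall was called. Of 13 lignin and phenylpropanoid genes 2 rose and 1 fell (median -0.09). CAD5 rose from 38.6 to 50.4 FPKM. The other rise, FAH1, was lost without Col-0 library A or B or tic-2 library C (adjusted p at most 0.093). The fall, PAL2 (log2 fold change -0.76), was lost without any 1 of Col-0 A, B or C, tic-2 C, Col-0 postdusk C or tic-2 postdusk A or B, and 2 or 3 falls were called without tic-2 B, tic-2 postdusk C or tic-2 A. Of 6 alternative respiration genes 1 rose and 2 fell (median -0.36). NDA1, an internal NADH dehydrogenase of the mitochondrion, measured 62.6, 61.1 and 63.1 FPKM in Col-0 and 18.1, 15.4 and 14.4 FPKM in tic-2 (log2 fold change -1.91, SE 0.10, adjusted p = 2.11e-07). AOX1A, the alternative oxidase, rose from 22.6 to 34.1 FPKM.

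Organ markers were counted to see what each genotype held. Of 9 root markers 2 rose and none fell (median log2 fold change 0.41), with a summed level of 1034 to 1390.3 FPKM in Col-0 and 1052 to 1509 in tic-2. The nitrate transporter NRT1.5 rose from 15.7 to 41.1 FPKM and SHR, a regulator of root patterning, from 11.1 to 15.1 FPKM. Without Col-0 postdusk library B 4 root markers rose, and without tic-2 library A 1 fell. Of 11 shoot and leaf markers 1 rose and 4 fell (median 0.06), and the sum was 15118 to 17077 FPKM in Col-0 and 10561 to 12712 in tic-2. These sums did not overlap and are carried by photosynthesis genes, among them RBCS1A (9398 ± 637 FPKM in Col-0 and 6506 ± 697 FPKM in tic-2; adjusted p = 0.0253) and the carbonic anhydrase BCA1 (799 ± 42.4 FPKM in Col-0 and 392 ± 34.4 FPKM in tic-2). Without any 1 of Col-0 A, B or C or tic-2 B the call of RBCS1A was lost (adjusted p at most 0.0907) and 2 falls were called. The rise was KAT1 (log2 fold change 0.44), which was lost without any 1 of the Col-0 predawn libraries or tic-2 B or C. Without Col-0 postdusk B or tic-2 A 2 rises were called. Of 6 vasculature markers 2 rose and none fell (median 0.27), with sums over all 7 listed of 160 to 172 and 139 to 195 FPKM. These were ATHB8 and APL (log2 fold changes 0.35 and 0.33). The call of ATHB8 was lost without Col-0 library A or B or tic-2 library A or B, and that of APL without Col-0 library A or C or tic-2 library C (adjusted p at most 0.115). Of 7 seed and embryo markers 3 rose and none fell (median 0.76), with sums over all 9 listed of 210 to 371 and 259 to 613 FPKM. SESA3, a seed storage albumin, measured 13.6, 5.09 and 3.92 FPKM in Col-0 and 143, 31.8 and 58.8 FPKM in tic-2 (log2 fold change 3.11, SE 0.57, adjusted p = 0.00158), OLEO4, an oleosin of oil bodies, 4.23, 2.49 and 1.88 FPKM in Col-0 and 10.7, 9.46 and 7.2 FPKM in tic-2, and FUS3, an embryo regulator, 0.862 ± 0.228 FPKM in Col-0 and 1.88 ± 0.333 FPKM in tic-2. Without tic-2 library A 1 seed marker was called lower. LEC1 was at 0 in 5 of the 6 predawn libraries and at 0.0493 FPKM in tic-2 library A. The part of organ proportions in the falls of photosynthesis genes was not tested.

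The largest rises outside the groups were picked by size, 15 in all, of which CCL, MEE14, Fes1B and AT5G43440 hold the evening element. AT2G15880, annotated as a leucine-rich repeat protein, measured 2.63, 1.77 and 1.77 FPKM in Col-0 and 98.5, 111 and 207 FPKM in tic-2 (log2 fold change 5.45, SE 0.26, adjusted p = 8.03e-08). It lies on chromosome 2, from 6917514 to 6920319 on the minus strand, next to MEE14 (6920369 to 6922161, same strand). MEE14 measured 6.59, 6.41 and 8.23 FPKM in Col-0 and 137, 165 and 154 FPKM in tic-2 (log2 fold change 4.25, SE 0.17, adjusted p = 1.37e-08). The 2 neighbours were both low in every wild-type library and high in every mutant library. CCL, annotated as a CCR-like protein, measured 50.4, 49.9 and 45.3 FPKM in Col-0 and 956, 945 and 1045 FPKM in tic-2 (log2 fold change 4.31, SE 0.13, adjusted p = 2.1e-09). AT3G62550, an adenine nucleotide alpha hydrolase-like protein, measured 9.07, 9.56 and 7.87 FPKM in Col-0 and 162, 148 and 147 FPKM in tic-2 (log2 fold change 3.97, SE 0.10, adjusted p = 6.17e-10). The 3 mutant libraries were close together in both genes. The co-chaperone Fes1B went from 1.08 to 19.3 FPKM, the thioredoxin WCRKC1 from 3.57 to 34.4 FPKM, the beta-galactosidase BGAL4 from 5.67 to 49.1 FPKM, the BTB-TAZ adaptor BT4 from 8.28 to 66.8 FPKM, and AT5G14920, a gibberellin-regulated family protein, from 25 to 225 FPKM. AT4G32340, AT1G11210, AT1G27020 and AT5G43440 went from 6.11 to 69.6 FPKM, from 3.45 to 36.3 FPKM, from 9.24 to 90.8 FPKM and from 1.55 to 17.8 FPKM.

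The largest falls outside the groups were picked in the same way. SQP1, annotated as an oxidoreductase, measured 36.9, 39 and 47.4 FPKM in Col-0 and 1.4, 1.37 and 1.07 FPKM in tic-2 (log2 fold change -4.20, SE 0.16, adjusted p = 1.37e-08). THI2.2, a thionin, measured 21.7, 21.1 and 20.7 FPKM in Col-0 and 0.317, 0.61 and 0.278 FPKM in tic-2 (log2 fold change -3.99, SE 0.20, adjusted p = 1.05e-07). AT1G66100, another thionin, fell from 73.9 to 5.81 FPKM, the arginase ARGAH2 from 77.4 to 8.4 FPKM, the sulphate transporter SULTR3;1 from 54.6 to 5.97 FPKM, AT1G52000, annotated as a mannose-binding lectin, from 87.5 to 8.69 FPKM, and AT3G28220, a TRAF-like protein, from 65.2 to 7.3 FPKM. The Dof-type factor AT1G26790 went from 25 to 2.06 FPKM. AT2G15020, AT1G65490, AT3G28270 and AT4G27360 went from 76.1 to 4.12 FPKM, from 84.8 to 5.17 FPKM, from 44.8 to 1.77 FPKM and from 14.2 to 0.462 FPKM. Within both directions these were chosen by size, so their size is not itself a finding.

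A few of the largest differences were as large at postdusk. AT5G24240 measured 13.5, 13.3 and 12.8 FPKM in Col-0 and 0.0981, 0.0619 and 0.0828 FPKM in tic-2, and at postdusk 15.3 ± 1.58 FPKM in Col-0 and 0.0399 ± 0.0025 FPKM in tic-2. AT3G11960 measured 11, 12.9 and 13.9 FPKM in Col-0 and 0.108, 0.104 and 0.166 FPKM in tic-2, and at postdusk 13.7 ± 0.452 FPKM in Col-0 and 0.0901 ± 0.0354 FPKM in tic-2. These 2 genes were close to the read floor in every tic-2 library at both times. AT3G05945, annotated as a non-coding RNA, fell from 74.7 to 3.1 FPKM at predawn, and AT1G75945 rose from 1.14 to 30.6 FPKM. For these 4 genes the difference at predawn did not differ from that at postdusk past the threshold (interaction adjusted p = 0.244, 0.518, 0.811 and 0.842), which does not show that they are equal.

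The difference at predawn departed from that at postdusk for 3060 genes (15.9% of genes tested, limma interaction term), and the 2 contrasts share no library. Of these, 2114 were also called at predawn, 1020 of them higher and 1094 lower. Their postdusk difference had the opposite sign in 1527, and for 664 that opposite difference was itself called. Passing both tests favours an opposite sign at postdusk, and the share of opposite signs over all genes was not counted. These 2 counts are therefore not a measure of how common reversal is. The other 3220 genes called at predawn did not pass the interaction test. LHY was among the genes that departed: at postdusk it measured 0.483 ± 0.0298 FPKM in Col-0 and 31.5 ± 1.82 FPKM in tic-2 (interaction -5.79, adjusted p = 6.26e-11). PRR5 measured 19.6 ± 0.995 FPKM in Col-0 and 18.1 ± 5.2 FPKM in tic-2 at postdusk (interaction 3.67, adjusted p = 6.15e-07), and DRM2 352 ± 104 FPKM in Col-0 and 145 ± 31.1 FPKM in tic-2 (interaction 5.09, adjusted p = 6.15e-07). LHY was thus lower in the mutant at predawn and higher at postdusk, and DRM2 higher at predawn and lower at postdusk.

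Position in the genome was not part of the choice of genes. Called genes made up 26.8% to 29.0% of the kept genes on each of the 5 chromosomes. Within 0.5 Mb of TIC on chromosome 3, 25 of 173 genes rose and 28 fell (30.6% called), and within 1 Mb 42 and 51 of 350 (26.6%). The shares near TIC were thus close to those of whole chromosomes. Of 192 lncRNA genes 14 rose and 17 fell (7.29% and 8.85%, below the 13.1% and 14.6% over all genes).

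The mutant libraries differed in how far they moved from Col-0. Among groups, evening clock and tubulin medians were raised in all 3 libraries, while the phosphate group was lowered in A and near 0 in B and C. Some other group medians also differed from A through B to C. They were -0.0159, -0.552 and -0.74 for nitrogen assimilation, and 0.299, 0.885 and 1.38 for carbon shortage. For aliphatic glucosinolates they were -0.306, -0.941 and -1.39. The array weights that limma estimated from the spread around the group mean were 0.411, 3.77 and 0.248 for tic-2 A, B and C, against 0.982 to 1.64 in Col-0 predawn. Library B lay closest to the mutant mean.

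**Figure D5:**
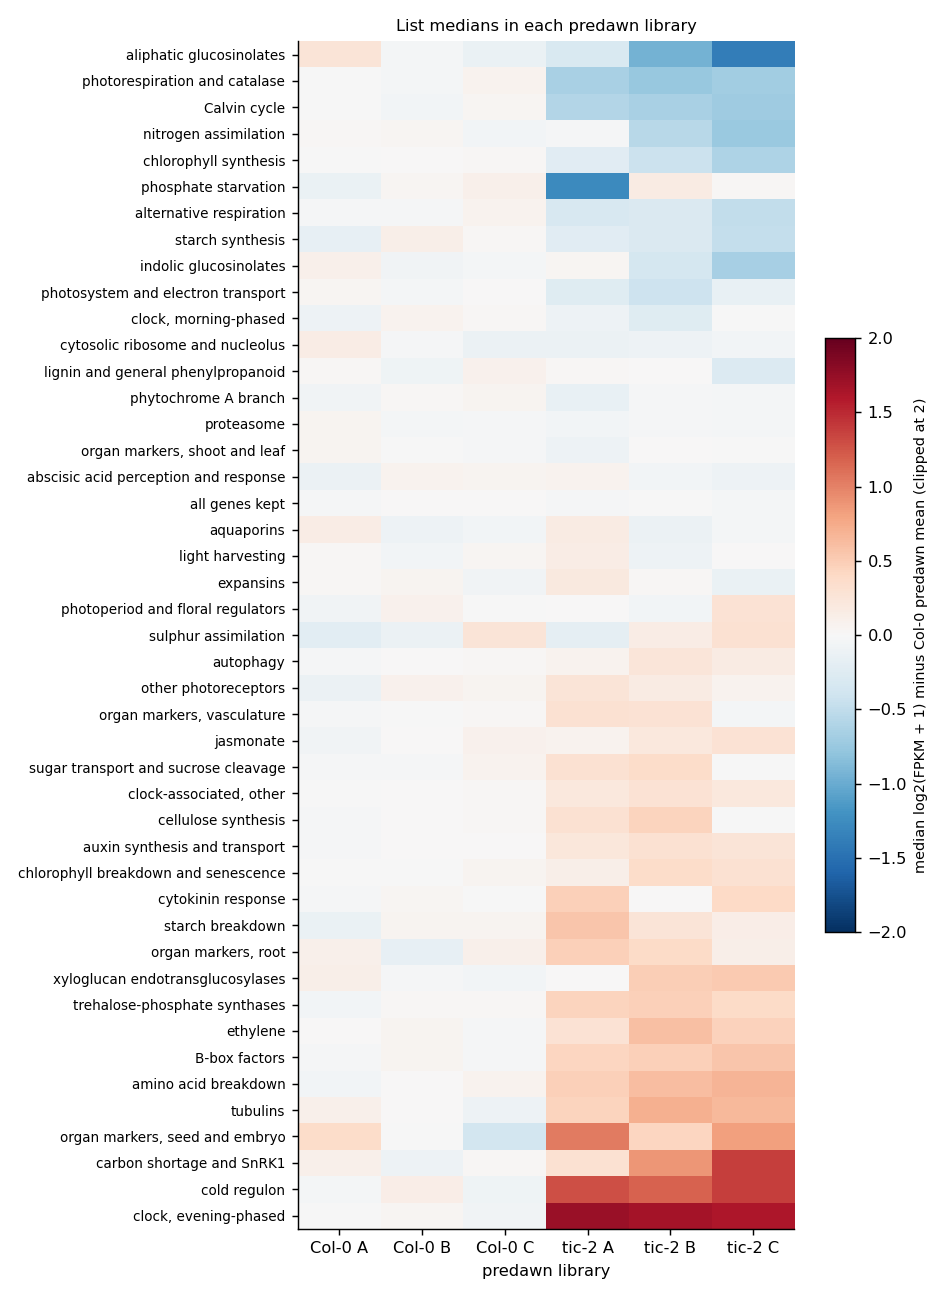
Median log2 difference from the Col-0 predawn mean for each gene group (rows) in each of the 6 predawn libraries (columns), as a colour scale. Col-0 medians run from -0.361 (library C) to 0.362 (library A), both for seed and embryo markers. The phosphate group is at -1.28 in tic-2 A against 0.157 in B and 0.0157 in C.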

How the data were processed

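Total RNA of whole seedlings was sequenced with a directional kit, per the labels' protocols. The authors deposited 1 table of FPKM values for 12 libraries and 25729 genes. TopHat, TopHat2, edgeR and the TAIR10 build are named, without versions, per the submitters' processing notes. For the counter, its strand setting and its treatment of shared reads, the sources used here give nothing. Columns were assigned to groups by their own names, since the description fields of 6 samples conflict with their titles.

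Values were tested as log2(FPKM + 1) with limma 3.58.1 (R 4.3.3). Genes with at least 1 FPKM in at least 3 libraries were kept. All 12 libraries entered 1 fit of 4 group means (8 residual degrees of freedom, 3.78 prior degrees of freedom, moderation with a trend), adjusted by Benjamini-Hochberg over the 19274 genes kept. Fold changes on this scale understate changes of low genes, and "-fold" is a ratio of mean FPKM. The script was checked on simulated data.

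Depth came from FPKM steps, given exon lengths of RefSeq TAIR10.1. Per library, 99.5% to 99.6% of the values of the 25453 matched genes were whole reads within 0.05 reads. Reads were recovered for the 25314 genes that were whole in every library. A limma voom fit on these reads, added after seeing the data, called 2518 genes higher and 2808 lower. Intervals cover counting error only. The design text calls replicates biological, with no source per sample given.

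The 44 gene lists hold 698 genes, of which 693 were in the table, 5 were not analysed here, 29 fell below the filter and 664 were kept. They, and the printed promoters, were chosen with earlier results of these data known, so the lists are described by counts, without a set test. Named genes were TIC and PHYA, preset members of each list, up to 4 called members per list and direction by size of change, and the 15 largest rises and 15 largest falls outside the lists with at least 5 FPKM and no overlap. For the interaction the 10 largest each way were taken. Names and coordinates came from RefSeq TAIR10.1, which matched 25453 of the genes. Promoters are 250 bases before to 50 after the start. Alternatives were other pseudocounts (0.1 and 5), filters, scalings, array weights, the 6 predawn libraries alone, a replicate block, and each library left out.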

Additional observations from a re-analysis of the deposited data

Results flagged for a closer look

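The tic-2 difference at predawn departed from that at postdusk for 3060 genes by the interaction term (limma, Benjamini-Hochberg adjustment). The values below are interaction differences on the log2(FPKM + 1) scale, predawn minus postdusk, each called at an adjusted p under 0.05, for the 10 largest each way among genes called at predawn. They were picked by size and are given as values.

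Above 0 stood DRM2 at 5.09, AT2G15880 at 4.99, CCL at 4.85, MEE14 at 4.79, AT3G62550 at 4.34, PRR5 at 3.67, AT5G43440 at 3.64, MIOX2 at 3.55, AMY3 at 3.47 and COR413IM1 at 3.44. MIOX2, an oxygenase that breaks down inositol, measured 3.71, 2.1 and 3.18 FPKM in Col-0 and 2.56, 22.8 and 52.6 FPKM in tic-2 at predawn (log2 fold change 2.07, SE 0.69, adjusted p = 0.043), with tic-2 library A inside the wild-type range and library C the highest. Its predawn call was lost under 15 of the 24 alternatives, among them voom on recovered reads (adjusted p = 0.128), a fit of the 6 predawn libraries alone (0.108) and leaving out any 1 library other than tic-2 predawn A. Without tic-2 library C its predawn log2 fold change was 1.23 (adjusted p = 0.151).

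Below 0 stood AT2G15020 at -6.75, LHY at -5.79, CCA1 at -5.66, SQP1 at -5.29, NDA1 at -5.17, AT3G28270 at -4.77, BBX32 at -4.68, RVE1 at -4.62, COL7 at -4.33 and RVE8 at -4.25. AT2G15020 measured 76.1 ± 4.61 FPKM in Col-0 and 4.12 ± 1.27 FPKM in tic-2 at predawn and 1.05 ± 0.361 FPKM in Col-0 and 13.5 ± 3.99 FPKM in tic-2 at postdusk. CCA1 measured 0.748 ± 0.0307 FPKM in Col-0 and 60.6 ± 8.71 FPKM in tic-2 at postdusk, so the dawn Myb genes CCA1 and LHY were lower in the mutant at predawn and higher at postdusk.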

How the results depend on the processing

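At predawn 2526 genes were called higher and 2808 lower, and 3060 in the interaction. Array weights, which rated tic-2 predawn libraries A and C low, raised these to 4529, 5003 and 7954. Leaving out 1 library gave 1863 to 2798 higher, 1939 to 3298 lower and 2201 to 3603 in the interaction. The other alternatives run moved each count by less than 1.5 times. With a replicate block the counts were 2430, 2663 and 2789. At predawn, Col-0 and tic-2 libraries with the same letter did not deviate together (correlations -0.153, -0.0964 and -0.127). Pairs at postdusk or across the times were not examined, so a batch shared by letter there was not tested. The evening element share of 12.4% ran from 10.6% to 15%. Of 255 named genes called, 199 were called under all 24 alternatives, 56 lost the call under 1 or more and 33 under 5 or more, and 0 changed sign. Uncalled genes changed sign in 3 cases. CESA6 had -0.019 under quantile normalization and -0.14 to 0.20 with 1 library left out. COI1 had -0.019 with array weights, -0.061 to 0.082 with 1 library left out, and -0.061 without both C libraries. NIA1 had -1.14 to 0.14 with 1 library left out and 0.14 without both C libraries. The cause was not tested. The number of libraries, 3 a group, and for genes under about 1 FPKM the reads behind them, limit these results.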
